A study of Mus musculus with 12 samples.

Results

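The 9 genes described here are the FoxO transcription factors *Foxo1*, *Foxo3* and *Foxo4* and 6 genes known to be induced by them when Akt activity is low, *Ccng2*, *Irs2*, *Fbxo32*, *Pdk4*, *Txnip* and *Bcl6*. They were chosen by symbol with earlier results of these libraries in view, so their own levels and differences are given as a description without a test. All 9 were found by symbol among the 43432 genes of the count table, and all 9 were among the 17257 genes that passed edgeR's filter on low counts. RNA selected for polyA tails was sequenced from whole sciatic nerves of mice aged 1 month, in 3 groups of 4 mice with 3 males and 1 female in each. The WT control mice were *Mtmr2* wt/wt and untreated, and the *Mtmr2* KO mice were *Mtmr2* -/- and listed as untreated, although the text of the study also calls this group vehicle treated. The niacin-treated *Mtmr2* KO mice were also *Mtmr2* -/- and received intraperitoneal niacin (120 mg/kg) starting at day 10, then slow-release niacin by gavage from day 21 to day 30. The mutation is present in every cell of the animal and not only in Schwann cells, and no WT mice given niacin were sequenced in the libraries used here. Mice lacking *Mtmr2*, which encodes a phosphatase of phosphoinositide lipids, model the neuropathy CMT4B1, and the study asked what the loss of the gene and niacin do to the nerve.

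FoxO factors are forkhead DNA-binding proteins that sit downstream of growth factor receptors. When phosphoinositide 3-kinase and Akt are active, Akt phosphorylates them and they are held in the cytoplasm. When Akt activity falls they enter the nucleus and turn on genes of cell cycle exit, protein breakdown, autophagy, fasting metabolism and stress resistance, together with receptor genes that restore sensitivity to growth factors. In the nerve, neuregulin from the axon acts through ErbB receptors on Schwann cells and uses the same kinases to control myelination. Transcript levels of FoxO genes do not report the location or phosphorylation of the proteins, which these data did not measure.

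The promoters of the genes are shown first because FoxO proteins bind a defined DNA motif. RefSeq promoter windows of GRCm38.p6, with 250 bases before and 50 after the annotated start, were held for 7 of the 9 genes, and *Foxo4* and *Fbxo32* had none. The 7-letter motif GTAAACA or its reverse complement TGTTTAC stood in 1199 of 32851 windows in the whole table (3.65%) and, among the 9 genes, in that of *Txnip*. The shorter core AAACA or TGTTT, which the longer motif contains, stood in 50.54% of all windows and in 5 of the 8 windows of the 7 genes. These 5 were the windows of *Foxo1*, *Ccng2*, *Irs2* and *Txnip* and 1 of the 2 windows of *Bcl6*, while the windows of *Foxo3* and *Pdk4* held neither. Both strands were searched. Printed below are the windows of *Txnip*, the single gene with the longer motif, of *Ccng2* and *Irs2*, whose niacin-treated libraries did not overlap either other group, and of *Cdkn1b*, the FoxO target outside the 9 genes that passed the test in these data. Each is written 5′ to 3′ on the strand of its gene with the motif letters in capitals.
Txnip (chr3:96557707-96558006, + strand): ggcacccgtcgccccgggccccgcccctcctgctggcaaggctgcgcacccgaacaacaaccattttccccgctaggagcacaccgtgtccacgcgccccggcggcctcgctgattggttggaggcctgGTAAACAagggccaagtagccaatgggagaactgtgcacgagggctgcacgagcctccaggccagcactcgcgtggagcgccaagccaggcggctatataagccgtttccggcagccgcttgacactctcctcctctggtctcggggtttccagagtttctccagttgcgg
Ccng2 (chr5:93267323-93267622, + strand): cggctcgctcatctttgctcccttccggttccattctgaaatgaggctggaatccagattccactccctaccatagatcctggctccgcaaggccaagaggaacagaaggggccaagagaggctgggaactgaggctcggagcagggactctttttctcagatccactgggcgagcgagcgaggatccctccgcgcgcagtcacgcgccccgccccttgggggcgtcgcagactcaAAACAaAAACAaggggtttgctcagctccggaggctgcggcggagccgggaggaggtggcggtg
Irs2 (chr8:11008880-11009179, - strand): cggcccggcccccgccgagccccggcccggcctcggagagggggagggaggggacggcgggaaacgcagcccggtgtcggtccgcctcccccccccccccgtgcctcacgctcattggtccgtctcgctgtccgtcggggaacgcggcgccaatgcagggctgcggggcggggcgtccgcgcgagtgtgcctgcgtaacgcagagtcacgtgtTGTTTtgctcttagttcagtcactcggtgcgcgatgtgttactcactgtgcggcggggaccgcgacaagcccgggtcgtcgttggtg
Cdkn1b (chr6:134920151-134920450, + strand): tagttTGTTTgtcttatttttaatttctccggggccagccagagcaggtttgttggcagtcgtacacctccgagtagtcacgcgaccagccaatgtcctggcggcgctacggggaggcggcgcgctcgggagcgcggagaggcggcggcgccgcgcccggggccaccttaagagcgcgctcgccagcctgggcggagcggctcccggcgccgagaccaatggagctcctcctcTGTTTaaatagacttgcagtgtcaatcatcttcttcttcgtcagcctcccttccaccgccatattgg
The core began 119 bases before the RefSeq start in *Txnip*, 14 and 8 bases before it in *Ccng2*, 37 bases before it in *Irs2*, and 245 and 17 bases before it in *Cdkn1b*. The gene coordinates given below are those of GENCODE M21 and can differ. There *Ccng2* begins at 93267257, ahead of its window, so its cores lie inside that gene. The GENCODE start of *Irs2*, at 11008458, lies outside its window. These matches describe letters in a window and are not measured binding sites.

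Libraries held between 20763951 and 33191106 counts. They are named by their replicate numbers, 4497 to 4500 for WT control, 4501 to 4504 for *Mtmr2* KO and 4505 to 4508 for niacin-treated *Mtmr2* KO. *Mtmr2* itself had between 128 and 161 CPM (read counts scaled by the library total and edgeR's TMM factor) in WT control and between 66.8 and 73.5 CPM in the niacin-treated libraries. The 4 libraries labelled *Mtmr2* KO had 71.6, 84.7, 143 and 69.5 CPM, so the library labelled *Mtmr2* KO replicate 4503 lay within the WT control range and went against its label. The counts cover the whole gene, and the sources used here do not give the deleted part. Library 4503 was kept under its label, and each difference that involves the *Mtmr2* KO group is given with it and, where it matters, without it. Markers of myelinating Schwann cells were high in every library, with sums of 10 genes from 63817 to 121068 CPM. Sums of 11 skeletal muscle markers were 3867 CPM in library 4506 and 3844 CPM in library 4507, against 38.2 to 133 CPM in the other 10. Sums of 8 endothelial markers were 677 to 712 CPM in WT control and 343 to 513 CPM with niacin, without overlap. They were 304 to 854 CPM in the libraries labelled *Mtmr2* KO. Against WT control, 7 of the 8 had a lower mean with niacin and 1 a higher one (median log2 fold change −0.57). At an adjusted p under 0.05 edgeR called 0 of the 8, with 5 at an unadjusted p under 0.05. The part of this difference in the levels of the genes described here was not tested. In whole nerve, fewer cells of a type and less RNA per cell cannot be told apart.

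The mean of all 9 genes was lower in the niacin-treated libraries than in the libraries labelled *Mtmr2* KO, with log2 fold changes from −1.22 to −0.40 and a median of −0.79. Compared with WT control, 8 of the 9 means were higher in the libraries labelled *Mtmr2* KO (median log2 fold change 0.41, range from −0.03 to 1.48). Between niacin-treated *Mtmr2* KO and WT control, 7 means were lower with niacin, with a median of −0.36. Over all 17257 genes tested the medians were 0.03 for *Mtmr2* KO against WT control, −0.04 for niacin-treated against *Mtmr2* KO and 0.02 for niacin-treated against WT control, and 54.1% of all genes had a lower mean in niacin-treated than in *Mtmr2* KO (42.7% when libraries were scaled by their totals without TMM). The first and second of these comparisons share the *Mtmr2* KO libraries, so a high *Mtmr2* KO mean moves both, in opposite directions. Markers of Schwann cells differed in the same direction. All 10 markers of myelinating Schwann cells had a lower mean with niacin than in *Mtmr2* KO (median log2 fold change −0.55), as did 7 of 8 markers of non-myelinating Schwann cells (median −0.34). None of these 18 was called by edgeR, with 5 of the 10 and 4 of the 8 at an unadjusted p under 0.05, beside 3472 of all 17257 genes tested. DESeq2 called 2 of each, beside 493 higher and 566 lower of 17039 genes. By limma-voom 4 of each were called, beside 808 higher and 1199 lower of 17257 genes. The sum of the 10 was 88940 to 121068 CPM in *Mtmr2* KO and 63817 to 104302 CPM with niacin, and the sum of the 8 was 648 to 1008 CPM and 579 to 828 CPM. Their part in the levels of the 9 genes was not tested.

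**Figure D1:**
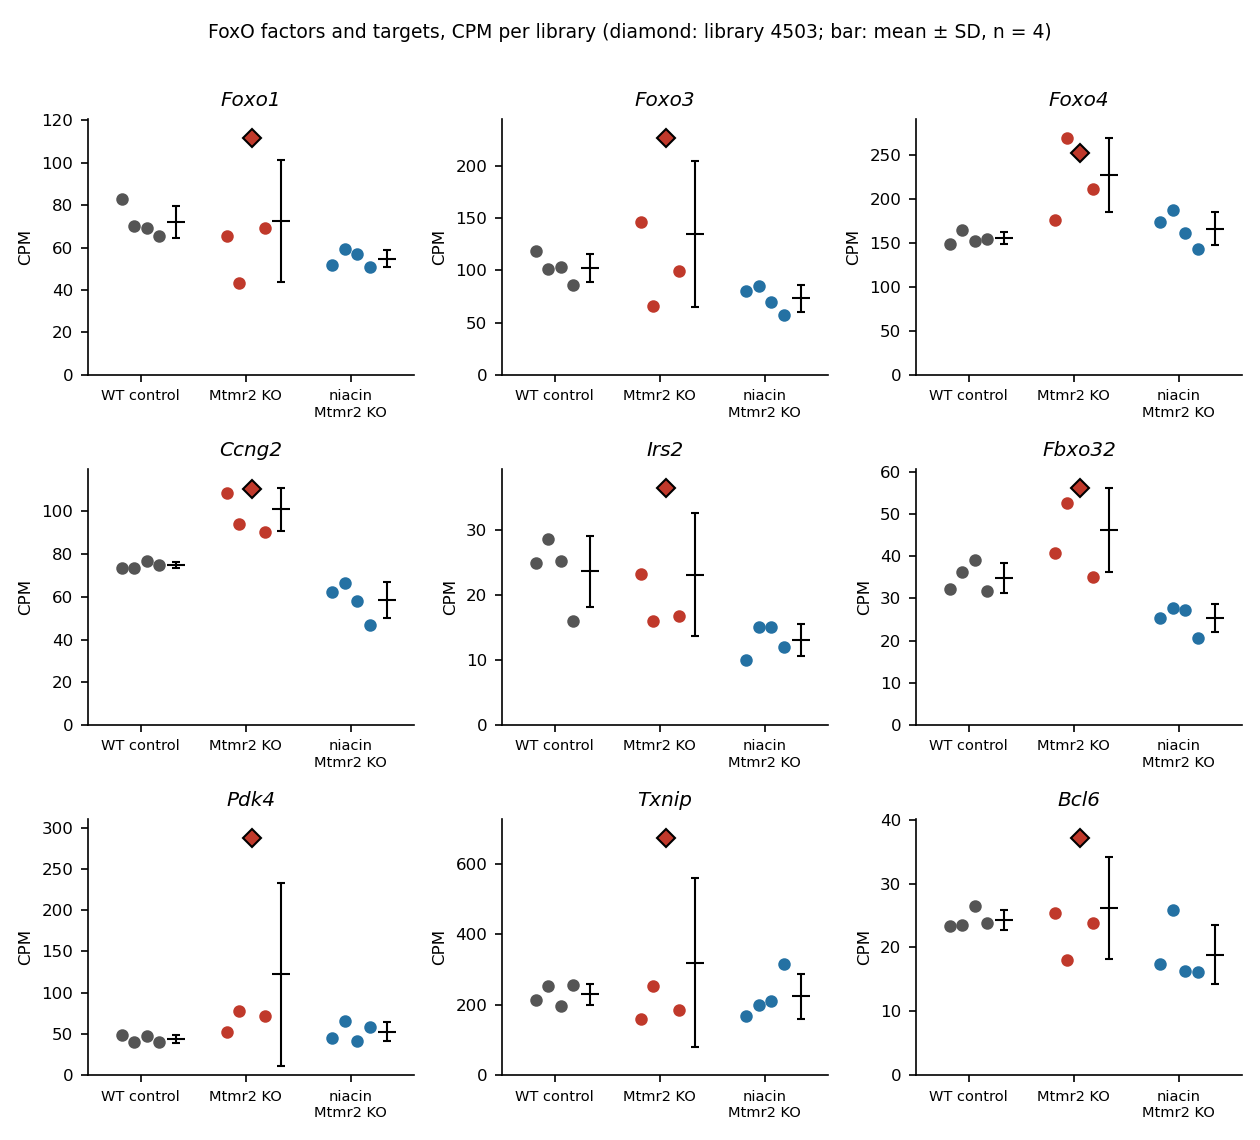
Levels in CPM (y axis, from 0) of the 9 genes in each of 12 libraries (points) by group (x axis), with the library labelled *Mtmr2* KO replicate 4503 as a diamond and the mean ± SD of 4 libraries as a bar. Library 4503 is the highest of the 12 for 8 of the 9 genes, and for *Ccng2* the 3 groups do not overlap.

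Counted in the edgeR quasi-likelihood F test at a Benjamini-Hochberg adjusted p under 0.05, 0 of the 9 genes were higher and 0 lower in *Mtmr2* KO than in WT control, where 0.0464% of all genes tested were called higher and 0.22% lower. Of the 9, 4 had an unadjusted p under 0.05 in that comparison, beside 2976 of all 17257 genes tested. DESeq2 called 2 (*Foxo4* and *Pdk4*, both higher), beside 270 of 18330 genes called higher and 410 lower. With sample quality weights, limma-voom called 0, beside 9 of 17257 genes called higher and 99 lower. Between niacin-treated and *Mtmr2* KO libraries 0 were called higher and 2 lower (*Ccng2* and *Fbxo32*), beside 0.695% of all genes called higher and 0.73% lower. Between niacin-treated *Mtmr2* KO and WT control edgeR called 0 higher and 0 lower, where 0% of all genes were called in either direction. There 3 of the 9 genes had an unadjusted p under 0.05, beside 4254 of all 17257 genes tested. DESeq2 called 1, limma-voom called 6 and edgeR fitted to those 2 groups alone called 5, all lower with niacin. Over all genes, DESeq2 called 819 of 15100 lower and limma-voom 3715 of 17257 lower. The fit of those 2 groups called 5586 of 16501 in either direction. Groups did not overlap for 3 of the 9 genes between *Mtmr2* KO and WT control (9.32% of all genes), for 3 between niacin-treated and *Mtmr2* KO (7.01% of all genes) and for 5 between niacin-treated *Mtmr2* KO and WT control (31.4% of all genes). Since the 9 genes were chosen with these values known, nothing is read from these counts.

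The calls of *Ccng2* and *Fbxo32* were lost with several choices of libraries. Neither was called by edgeR in the fit of only the 2 groups, without library 4503, without any 1 of the 4 WT control libraries, or without the niacin-treated library 4506 or 4507, and *Fbxo32* was not called without library 4505 or 4508 either.

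**Figure D2:**
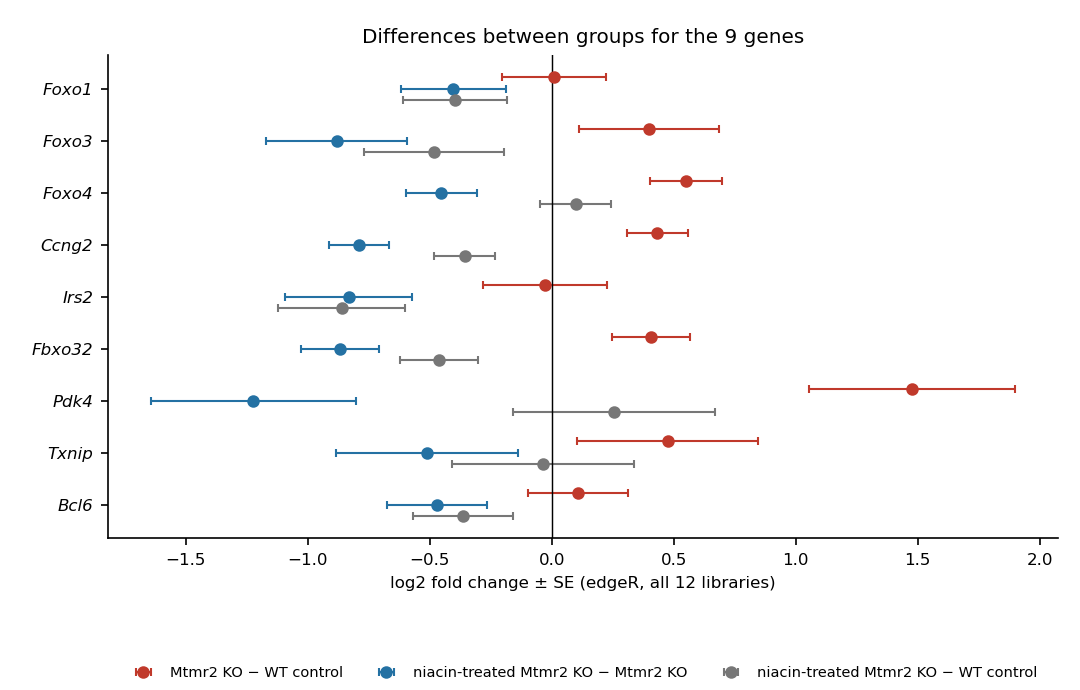
Log2 fold changes (x axis) ± SE from edgeR over all 12 libraries for the 9 genes (y axis) in the 3 comparisons, in red for *Mtmr2* KO minus WT control, blue for niacin-treated minus *Mtmr2* KO and grey for niacin-treated *Mtmr2* KO minus WT control. All 9 blue points lie below 0, from −1.22 for *Pdk4* to −0.40 for *Foxo1*.

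Among the FoxO factors of the 9, *Foxo4* (ENSMUSG00000042903, chromosome X of GRCm38 from 101254528 to 101260873, + strand) was the one whose level separated the libraries labelled *Mtmr2* KO from WT control. Its levels were 149, 165, 153 and 155 CPM in WT control, 176, 269.5, 252 and 211 CPM in the libraries labelled *Mtmr2* KO, and 173, 187, 161 and 142 CPM in niacin-treated *Mtmr2* KO. All 4 *Mtmr2* KO libraries were above all 4 WT control libraries, while the niacin-treated libraries overlapped both other groups. The WT control mean of 155 ± 6.69 CPM (SD, n = 4) compared with 227 ± 42.1 CPM (SD, n = 4) for *Mtmr2* KO, which was 0.55 higher on the log2 scale (SE 0.15). It stood at 166 ± 18.8 CPM (SD, n = 4) with niacin, 0.45 lower on the log2 scale than *Mtmr2* KO (SE 0.15). *Foxo4* was also the one gene of the 9 whose highest level was not in library 4503 but in library 4502.

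*Foxo3* (ENSMUSG00000048756, chromosome 10 from 42181841 to 42276755, − strand), the factor best known for atrophy and autophagy programmes, had 118, 101, 103 and 86.2 CPM in WT control and 80.6, 85.5, 69.5 and 57.1 CPM in the niacin-treated libraries. The niacin-treated libraries all lay below WT control, by a narrow margin between 85.5 and 86.2 CPM. In the libraries labelled *Mtmr2* KO it had 147, 65.6, 227 and 99.8 CPM, a spread that covered the whole WT control range. The *Mtmr2* KO mean was 135 ± 70.0 CPM (SD, n = 4) and that with niacin was 73.2 ± 12.6 CPM (SD, n = 4), a log2 difference of −0.88 (SE 0.29). Without library 4503 this difference was −0.51 (SE 0.23), and that between *Mtmr2* KO and WT control went from 0.40 to 0.02.

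*Foxo1* (ENSMUSG00000044167, chromosome 3 from 52268336 to 52353221, + strand) is the factor of insulin-regulated metabolism. With library 4503 included, it had the smallest difference between *Mtmr2* KO and WT control of the 3. It had 83.0, 70.3, 69.4 and 65.7 CPM in WT control, 65.5, 43.2, 112 and 69.3 CPM in the libraries labelled *Mtmr2* KO, and 51.8, 59.4, 57.1 and 50.8 CPM with niacin. The niacin-treated libraries were all below WT control, and the *Mtmr2* KO libraries overlapped both groups. The log2 difference was 0.01 (SE 0.21) between *Mtmr2* KO and WT control and −0.40 (SE 0.21) between niacin-treated *Mtmr2* KO and either other group. Without library 4503 niacin-treated against *Mtmr2* KO became −0.12 (SE 0.16). *Mtmr2* KO against WT control became −0.28 (SE 0.16) without it, and *Foxo3*, at 0.02, then had the smallest difference.

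Divided by the length of their exons, the levels can be compared between genes. In WT control *Foxo4* stood at 44.5 ± 1.92 CPM per kb (SD, n = 4), *Foxo3* at 13.5 ± 1.74 and *Foxo1* at 8.32 ± 0.87 CPM per kb, and the ranges of the 3 did not overlap. *Foxo4* made up 67.1 ± 3.13% of the sum of the 3 factors per kb in WT control (SD, n = 4), 71.8 ± 10.1% in *Mtmr2* KO (SD, n = 4) and 74.9 ± 0.31% in niacin-treated *Mtmr2* KO (SD, n = 4). The share lay between 74.6% and 75.3% in the niacin-treated libraries, above the 62.9% to 70.1% of WT control, and between 62.8% and 85.0% in *Mtmr2* KO. The sum of the 3 factors was 66.4 ± 2.44 CPM per kb in WT control, 91.4 ± 16.9 in *Mtmr2* KO and 63.6 ± 7.37 with niacin (SD, n = 4 each). The sum was 77.4 CPM per kb or more in every *Mtmr2* KO library and at most 71.8 CPM per kb in the other 8. *Foxo6*, the other FoxO gene, had 5.43 to 7.33 CPM in WT control, 2.84 to 5.40 CPM in *Mtmr2* KO and 3.09 to 5.77 CPM with niacin. Its *Mtmr2* KO libraries lay below WT control, opposite to *Foxo4*, by a narrow margin between 5.40 and 5.43 CPM. Groups did not overlap in that comparison for 9.32% of all genes. *Foxo6* was not called in any comparison (edgeR quasi-likelihood F test, adjusted p between 0.252 and 0.833).

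Per kb, *Txnip* was the most abundant of all 9 in WT control at 73.3 ± 9.55 CPM per kb (SD, n = 4), followed by *Foxo4*. *Ccng2* (13.7 ± 0.28), *Foxo3* and *Pdk4* (12.5 ± 1.30 CPM per kb) came next in this order, and the ranges of neighbours among these 3 overlapped. *Foxo1*, *Fbxo32* (4.996 ± 0.497) and *Irs2* (3.74 ± 0.86 CPM per kb) followed without overlap of neighbours, and *Irs2* and *Bcl6* (3.63 ± 0.22 CPM per kb) overlapped. In the libraries labelled *Mtmr2* KO the range of each gene overlapped that of its neighbour.

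*Ccng2* (ENSMUSG00000029385, chromosome 5 from 93267257 to 93276231, + strand) encodes cyclin G2, an unusual cyclin linked to exit from the cell cycle, and was the gene whose 3 groups were most cleanly ordered. It had 73.6, 73.7, 76.8 and 75.1 CPM in WT control, 108, 94.3, 111 and 90.3 CPM in the libraries labelled *Mtmr2* KO, and 62.5, 66.3, 58.1 and 46.7 CPM with niacin. No 2 of the 3 groups overlapped, with *Mtmr2* KO highest and niacin-treated lowest. The WT control mean of 74.8 ± 1.51 CPM (SD, n = 4) compared with 101 ± 10.1 CPM (SD, n = 4) in *Mtmr2* KO and 58.4 ± 8.50 CPM (SD, n = 4) with niacin. The log2 differences were 0.43 (SE 0.12) for *Mtmr2* KO minus WT control, −0.79 (SE 0.12) for niacin-treated minus *Mtmr2* KO, which is 1.73-fold lower, and −0.36 (SE 0.12) for niacin-treated minus WT control.

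*Irs2* (ENSMUSG00000038894, chromosome 8 from 10984681 to 11008458, − strand), an adaptor that carries insulin and IGF receptor signals to phosphoinositide 3-kinase, was lower in each niacin-treated library than in any other library. It had 24.9, 28.6, 25.2 and 15.9 CPM in WT control, 23.2, 16.0, 36.5 and 16.7 CPM in the libraries labelled *Mtmr2* KO, and 9.99, 14.999, 15.03 and 11.97 CPM with niacin. The lowest WT control library, at 15.9 CPM, was close to the highest niacin-treated libraries, and the WT control and *Mtmr2* KO libraries overlapped. The mean was 12.998 ± 2.466 CPM (SD, n = 4) with niacin, against 23.1 ± 9.49 in *Mtmr2* KO and 23.6 ± 5.42 CPM in WT control (SD, n = 4 each). The log2 differences were −0.83 (SE 0.26) and −0.86 (SE 0.26), and the first became −0.52 (SE 0.21) without library 4503.

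*Fbxo32* (ENSMUSG00000022358, chromosome 15 from 58175879 to 58214932, − strand) encodes atrogin-1, the substrate-binding part of a ubiquitin ligase known from muscle atrophy. It had 32.3, 36.2, 39.1 and 31.7 CPM in WT control, 40.8, 52.6, 56.3 and 35.0 CPM in the libraries labelled *Mtmr2* KO, and 25.5, 27.8, 27.4 and 20.5 CPM with niacin. The niacin-treated libraries were below all others, and the *Mtmr2* KO and WT control libraries overlapped. The mean of 25.3 ± 3.33 CPM (SD, n = 4) with niacin was 0.87 lower on the log2 scale than *Mtmr2* KO (SE 0.16), a 1.83-fold difference, and 0.46 lower than WT control (SE 0.16). Libraries 4506 and 4507, which held the muscle transcripts, had 27.8 and 27.4 CPM of *Fbxo32*, and the other niacin-treated libraries had 25.5 and 20.5 CPM, so *Fbxo32* was low with and without them. *Trim63*, the other ubiquitin ligase of muscle atrophy, was chosen after its values were seen and had 0.37 CPM in WT control, 0.52 CPM in *Mtmr2* KO and 1.75 CPM with niacin. These levels are low, and the mean with niacin includes libraries 4506 and 4507. The part of the muscle transcripts in it was not tested.

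*Pdk4* (ENSMUSG00000019577, chromosome 6 from 5483351 to 5496309, − strand) encodes a kinase that shuts off pyruvate dehydrogenase and spares glucose in fasting, and had the largest difference between *Mtmr2* KO and WT control of the 9. It had 48.8, 39.8, 46.9 and 40.4 CPM in WT control, 52.6, 77.7, 288 and 71.2 CPM in the libraries labelled *Mtmr2* KO, and 44.4, 65.7, 41.5 and 58.2 CPM with niacin. All 4 *Mtmr2* KO libraries were above WT control, but library 4503 stood 4.04 times above the median of the other 3. The log2 difference of 1.48 (SE 0.42) between *Mtmr2* KO and WT control became 0.61 (SE 0.18) without library 4503, with the groups still not overlapping. Niacin-treated against *Mtmr2* KO, it went from −1.22 (SE 0.42) to −0.36 (SE 0.18) without that library, and the groups overlapped either way.

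*Txnip* (ENSMUSG00000038393, chromosome 3 from 96557957 to 96561883, + strand) encodes an arrestin-like protein that binds thioredoxin and restrains glucose uptake. It had 212, 254, 196 and 254 CPM in WT control, 159.8, 254, 673 and 186 CPM in the libraries labelled *Mtmr2* KO, and 168, 199.9, 209 and 316 CPM with niacin. The 3 groups overlapped, and library 4503 was 2.65 times as high as the highest WT control library. The direction of its differences rested on that library. The log2 fold change of *Mtmr2* KO against WT control was 0.47 (SE 0.37) with it and −0.20 (SE 0.22) without it, and that of niacin-treated against *Mtmr2* KO was −0.51 (SE 0.37) with it and 0.16 (SE 0.22) without it.

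*Bcl6* (ENSMUSG00000022508, chromosome 16 from 23965052 to 23988852, − strand), a transcriptional repressor that FoxO factors induce, had 23.3, 23.5, 26.5 and 23.8 CPM in WT control, 25.4, 18.03, 37.2 and 23.9 CPM in the libraries labelled *Mtmr2* KO, and 17.3, 25.8, 16.3 and 16.1 CPM with niacin. With niacin 3 of the 4 libraries lay below every other library and the fourth, 4506, lay within the WT control range. The log2 differences were 0.11 (SE 0.20) between *Mtmr2* KO and WT control, −0.47 (SE 0.20) between niacin-treated and *Mtmr2* KO, and −0.36 (SE 0.20) between niacin-treated and WT control. The second of these became −0.25 (SE 0.18) without library 4503.

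The 9 genes differed in how far they rested on library 4503. The SD of the log2 level was wider in *Mtmr2* KO than in WT control for all 9, which was so for 86.0% of all genes tested. Library 4503 had the highest level of the 12 for 8 of the 9 genes and for 19.5% of all genes tested. Without it, 5 of the 9 means were higher in *Mtmr2* KO than in WT control (median log2 fold change 0.02), and *Foxo1*, *Txnip* and *Bcl6* changed sign to −0.28, −0.20 and −0.11. *Foxo4* (0.49), *Ccng2* (0.38) and *Pdk4* stayed higher without overlap of the groups, beside 13.1% of all genes whose groups did not overlap in either direction without that library. Against the 3 remaining *Mtmr2* KO libraries, 8 of the 9 genes were still lower with niacin, with a median of −0.40, and *Ccng2* (−0.74), *Fbxo32* (−0.76) and *Irs2* did not overlap (8.15% of all genes). None of the 9 was called by edgeR in either comparison. Library 4503 is in neither group of niacin-treated *Mtmr2* KO against WT control. Leaving it out there changes the filter, the scaling and the shared estimate of the spread. In that comparison edgeR called 1 of the 9 without library 4503 (*Irs2*, lower with niacin), in a fit that called 304 of 17430 genes.

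**Figure D3:**
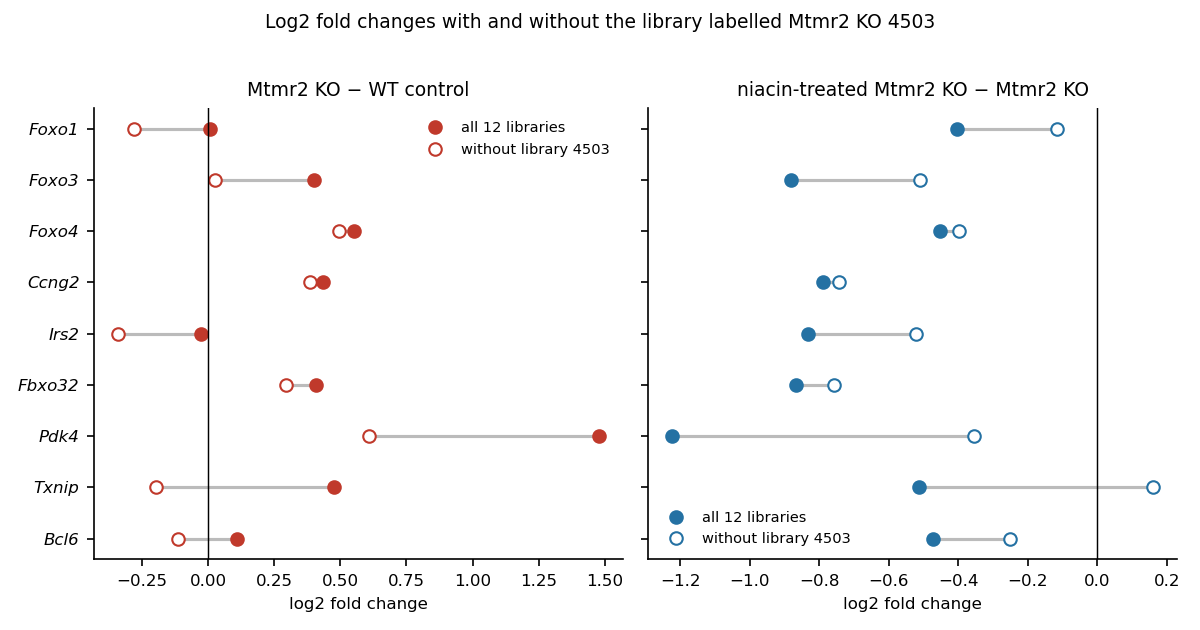
Log2 fold changes (x axis) of the 9 genes (y axis) from edgeR with all 12 libraries (filled) and without the library labelled *Mtmr2* KO replicate 4503 (open), for *Mtmr2* KO minus WT control (left) and niacin-treated minus *Mtmr2* KO (right). The longest shifts are those of *Pdk4*, from 1.48 to 0.61 and from −1.22 to −0.36, and *Txnip*, which crosses 0 in both panels.

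Library 4502 stood apart as well, with the highest level of the 12 for 24.0% of all genes and for 1 of the 9 genes. Leaving it out had the opposite effect. All 9 means were then higher in *Mtmr2* KO than in WT control (median log2 fold change 0.46) and lower with niacin than in *Mtmr2* KO (median −0.82). In the latter comparison edgeR called 7 of the 9 lower with niacin, all but *Foxo4* and *Txnip*. That fit called 4180 of 17716 genes tested, 2435 of them lower and 1745 higher.

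Genes known to respond to glucocorticoids, some of which are also FoxO targets, moved with library 4503. The summed level of 12 such genes was 8830 CPM there, against 2531 to 4406 CPM in the other libraries labelled *Mtmr2* KO, 1753 to 2056 CPM in WT control and 1557 to 2364 CPM in niacin-treated *Mtmr2* KO. Of the 12 genes, 10 had their highest level in library 4503 and 11 were above every WT control library there. *Sgk1*, a kinase that itself phosphorylates FoxO3, had 1142 CPM in library 4503 and 180 to 309 CPM in the other *Mtmr2* KO libraries. The part of the glucocorticoid-responsive genes in the levels of *Pdk4* and *Txnip* was not tested.

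**Figure D4:**
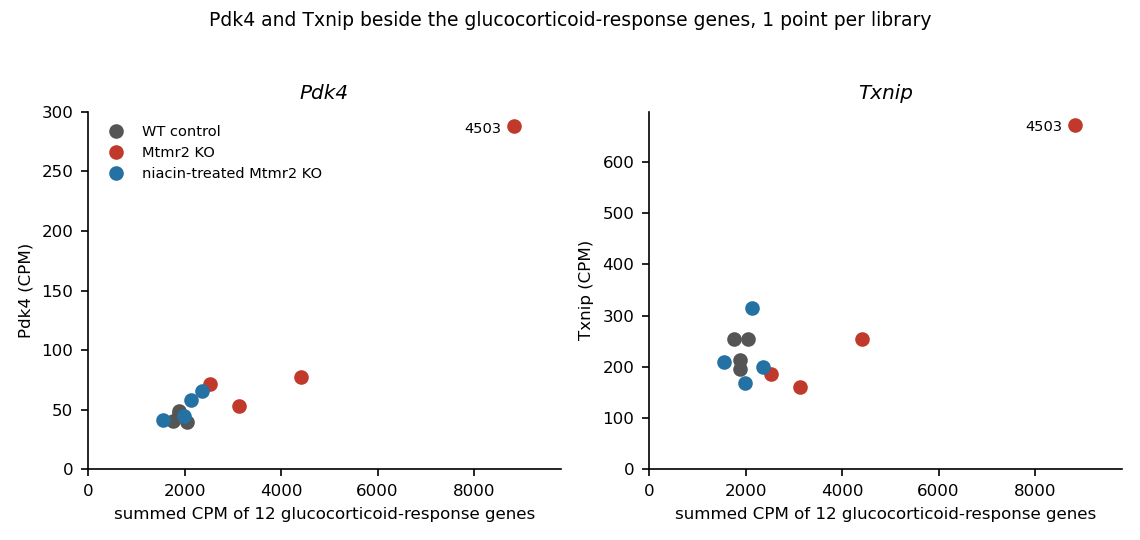
Levels of *Pdk4* (left) and *Txnip* (right) in CPM against the summed CPM of 12 glucocorticoid-response genes (x axis), with 1 point per library coloured by group. Library 4503 lies alone at the upper right of both panels, at 8830 CPM of the sum with 288 CPM of *Pdk4* and 673 CPM of *Txnip*.

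The other genes of the pathway were taken from 11 lists of 126 genes outside the 9, of which 117 were tested. In *Mtmr2* KO against WT control 0 of the 117 were called in either direction in the edgeR quasi-likelihood F test. Of the 117, 24 had an unadjusted p under 0.05, beside 2976 of all 17257 genes tested. DESeq2 called 9, beside 270 higher and 410 lower of 18330 genes. By limma-voom 6 were called, beside 9 higher and 99 lower of 17257 genes. Niacin-treated against *Mtmr2* KO, 0 of the 117 were higher and 1 was lower by edgeR, a share close to the 0.73% of all genes called lower. There 36 of the 117 had an unadjusted p under 0.05, beside 3472 of all 17257 genes tested. DESeq2 called 13, beside 493 higher and 566 lower of 17039 genes. By limma-voom 24 were called, beside 808 higher and 1199 lower of 17257 genes. Without library 4502 edgeR called 40 of the 117 in this comparison, among 4180 genes called of 17716 tested. Without library 4503 it called 0 of the 117 (23 at an unadjusted p under 0.05), among 13 genes called of 17430 tested. Niacin-treated against WT control, 0 of the 117 were called in either direction, with 32 at an unadjusted p under 0.05, beside 4254 of all 17257 genes tested. DESeq2 called 11, beside 238 higher and 819 lower of 15100 genes. By limma-voom 57 were called, beside 3596 higher and 3715 lower of 17257 genes. The edgeR fit of those 2 groups alone called 46, beside 5586 of 16501 genes. The median log2 fold changes of the 117 were 0.02, −0.09 and −0.10 in the 3 comparisons, beside 0.03, −0.04 and 0.02 for all genes tested. The counts over all genes given here also stand beside those of the single lists below.

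The 1 gene called was *Cdkn1b* (ENSMUSG00000003031, chromosome 6 from 134920401 to 134925513, + strand), which encodes the cell cycle inhibitor p27, a FoxO target of quiescence. It had 371, 386, 373 and 333 CPM in WT control, 687, 427, 789 and 469 CPM in the libraries labelled *Mtmr2* KO, and 271, 329, 259 and 259 CPM with niacin. No 2 of the 3 groups overlapped, in the same order as for *Ccng2*. It fell from 593 ± 173 CPM (SD, n = 4) in *Mtmr2* KO to 279 ± 33.3 CPM (SD, n = 4) with niacin, a log2 fold change of −1.09 (SE 0.19), at an adjusted p of 0.0388 in the edgeR quasi-likelihood F test. Against WT control (366 ± 22.5 CPM, SD, n = 4) the log2 fold change was 0.70 for *Mtmr2* KO (SE 0.19, adjusted p = 0.107) and −0.39 with niacin (SE 0.19, adjusted p = 0.217) in that edgeR fit. Without library 4503 the fold change between niacin-treated and *Mtmr2* KO was −0.92 and edgeR gave an adjusted p of 0.0687. Its direction was the same in all 21 other settings, and it was called in 9 of them, with adjusted p between 3.33e-05 and 0.31. The call was lost in the fit of only the 2 groups and without library 4501, 4503, 4506, 4507, 4508 or any 1 of the 4 WT control libraries.

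**Figure D5:**
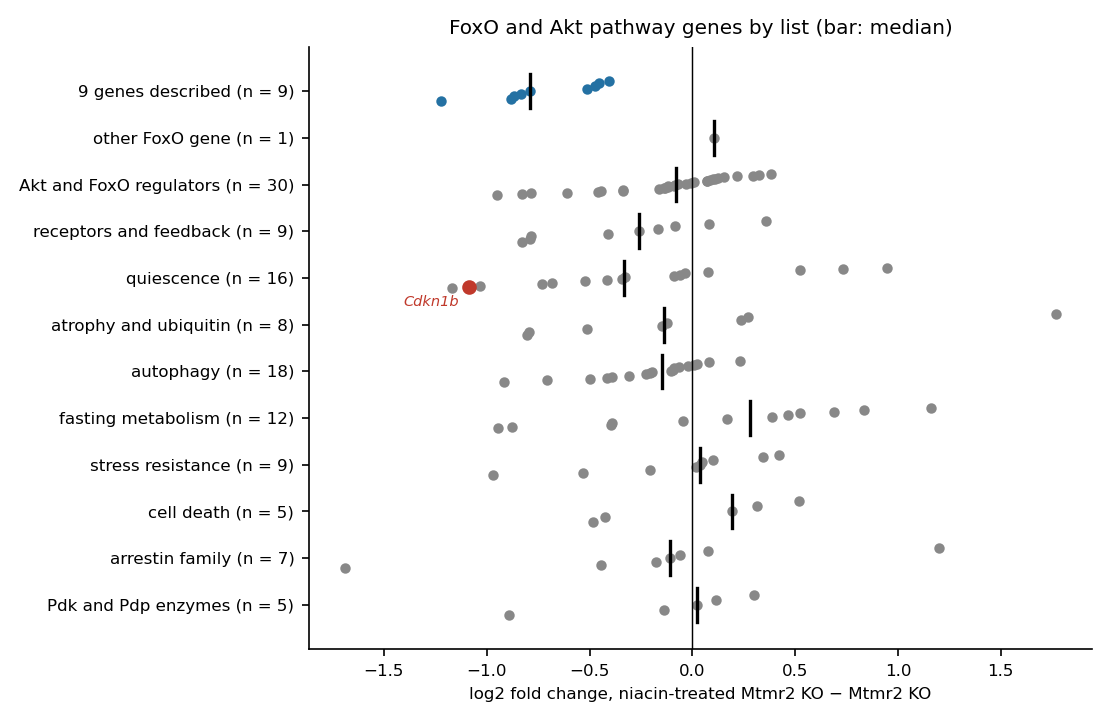
Log2 fold changes between niacin-treated *Mtmr2* KO and *Mtmr2* KO (x axis) for the 9 genes described, in blue, and the tested genes of 11 FoxO and Akt lists, in grey, with 1 point per gene and a bar at the median of each list; 3 genes stand in 2 lists. *Cdkn1b*, in red at −1.09, is the called gene, and the list medians lie between −0.33 for quiescence and 0.28 for fasting metabolism. The arrestin row also holds *Mlx*, *Mlxip* and *Mlxipl*, and the quiescence row also holds *Plk1*, *Ccnb1*, *Ccnd1* and *Ccnd2*, which drive the cell cycle.

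Among the 16 tested genes of the quiescence list, 12 had a lower mean with niacin than in *Mtmr2* KO, with a median log2 fold change of −0.33. Over all genes 54.1% had a lower mean. The groups did not overlap for 5 of the 16, beside 7.01% of all genes. Without TMM 9 of the 16 were lower. The list mixes roles, since *Plk1*, *Ccnb1*, *Ccnd1* and *Ccnd2* drive the cell cycle. Of these, *Ccnb1*, *Ccnd1* and *Ccnd2* had a higher mean with niacin (log2 fold changes 0.95, 0.73 and 0.52) and *Plk1* a lower one (−0.34). DESeq2 and limma-voom called *Cdkn1a*, *Cdkn1b*, *Gadd45b* and *Rbl2* lower with niacin, and limma-voom also called *Ccnd2* higher. *Cdkn1a*, which encodes the inhibitor p21, had 386 CPM in WT control, 550.0 CPM in *Mtmr2* KO and 269 CPM with niacin (log2 fold change −1.03 for niacin-treated against *Mtmr2* KO, adjusted p = 0.0907, edgeR quasi-likelihood F test, and −0.69 without library 4503). *Klf6*, also on the list and abundant, stayed between 142 and 152 CPM in the group means.

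Among the 9 receptors and feedback genes the median was −0.26 for niacin-treated against *Mtmr2* KO. There edgeR called 0, with 4 at an unadjusted p under 0.05, while DESeq2 and limma-voom each called *Erbb3* and *Igf1r* lower with niacin. *Erbb3*, the neuregulin receptor of Schwann cells and a FoxO target, had 194 CPM in WT control, 244 CPM in *Mtmr2* KO and 141 CPM with niacin, a log2 fold change of −0.79 for niacin-treated against *Mtmr2* KO (adjusted p = 0.0786, edgeR quasi-likelihood F test). *Insr*, the insulin receptor, had 56.5, 67.9 and 39.5 CPM in the same order (log2 fold change −0.78, adjusted p = 0.12, same test, and −0.47 without library 4503). Of 30 regulators of Akt and FoxO, such as *Pik3r1*, the regulatory subunit of phosphoinositide 3-kinase, edgeR called 0, with 6 at an unadjusted p under 0.05, DESeq2 called 1 and limma-voom 2, and the median was −0.08 (0.03 without TMM).

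Of 18 autophagy genes tested edgeR called 0 in both comparisons that involve the *Mtmr2* KO libraries, with 4 at an unadjusted p under 0.05 in each. DESeq2 called *Map1lc3b* and *Pink1* higher in *Mtmr2* KO than in WT control, and *Gabarapl1* and *Ulk1* lower with niacin than in *Mtmr2* KO. In the latter comparison limma-voom called *Gabarapl1*, *Ulk1*, *Sqstm1* and *Tfeb* lower. In all, 16 had a higher mean in *Mtmr2* KO than in WT control (median log2 fold change 0.21), as had 9327 of all 17257 genes tested. With niacin 14 had a lower mean than in *Mtmr2* KO (median −0.15), beside 54.1% of all genes. That count was 9 of 18 without TMM and 10 with limma-voom. *Pink1*, a kinase that marks damaged mitochondria, had 282 CPM in WT control, 438 CPM in *Mtmr2* KO and 335 CPM with niacin. Of the 8 atrophy and ubiquitin genes tested besides *Fbxo32*, edgeR called 0 with 4 at an unadjusted p under 0.05, DESeq2 called 2 and limma-voom 3, and the median was −0.14 for niacin-treated against *Mtmr2* KO. *Nedd4*, a ubiquitin ligase, had 809.7, 747 and 902 CPM in the 3 groups.

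The fasting metabolism genes were mixed in direction, with medians opposite to *Pdk4*. Of 12 tested, edgeR called 0, with 4 at an unadjusted p under 0.05 against WT control and 6 for niacin, while DESeq2 called *Lipe*, *Lpl* and *Pck1* lower in *Mtmr2* KO than in WT control and *Lpl* higher with niacin, and limma-voom called 5 in each comparison. Of the 12, 8 had a lower mean in *Mtmr2* KO than in WT control (median log2 fold change −0.37), beside 46.0% of all genes. With niacin 7 had a higher mean than in *Mtmr2* KO (median 0.28), as had 7924 of all 17257 genes tested. *Pck1*, *Ppargc1a*, *Lpl*, *Cd36*, *Lipe* and *Adipoq* went opposite to *Pdk4* in both comparisons. *Klf15*, *Glul* and *Cpt1a* went with *Pdk4* in both, with all 12 libraries. *Lpl*, which encodes lipoprotein lipase and is also high in fat cells, had 679.7, 322 and 719.9 CPM in the 3 groups (adjusted p = 0.114 and 0.0742 in these 2 comparisons, edgeR quasi-likelihood F test). The sum of 10 adipocyte markers was 2974 to 3972 CPM in WT control, 857 to 4883 CPM in *Mtmr2* KO and 2351 to 5155 CPM with niacin. Of these markers 9 had a lower mean in *Mtmr2* KO than in WT control, with *Plin1* and *Lep* called by edgeR, and 9 had a higher mean with niacin than in *Mtmr2* KO, with *Lep* called. This is the direction of the medians of the fasting metabolism genes, and the part of fat cells in the levels of those genes was not tested. The other pyruvate dehydrogenase kinases and phosphatases, 5 genes, had a median of 0.06 for *Mtmr2* KO against WT control (−0.03 without TMM), where *Pdk4* had 1.48. For niacin-treated against *Mtmr2* KO the 5 had a median of 0.02. *Pdk2* had 70.2, 77.7 and 41.9 CPM in the 3 groups. Its log2 fold change between the latter 2 was −0.89 (adjusted p = 0.108, edgeR quasi-likelihood F test), and −0.61 without library 4503. DESeq2 and limma-voom called *Pdk2* lower with niacin. The list of arrestin relatives of *Txnip* also holds *Mlx*, *Mlxip* and *Mlxipl*, which are not arrestins. Of its 7 genes tested, edgeR, DESeq2 and limma-voom called 0 in the 2 comparisons that involve the *Mtmr2* KO libraries. By edgeR 2 had an unadjusted p under 0.05 in each. *Arrdc2* had 20.1, 76.3 and 23.6 CPM in the 3 groups, and the middle value rested on library 4503 with 233 CPM, without which the *Mtmr2* KO mean was 24.1 CPM.

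Among 9 stress resistance genes edgeR called 0, with 1 at an unadjusted p under 0.05 in *Mtmr2* KO against WT control and 2 in niacin-treated against *Mtmr2* KO, while DESeq2 called *Sesn1* in both and limma-voom called *Sod2* and *Prdx3* higher with niacin. *Sesn1*, sestrin 1, an inhibitor of mTORC1, had 188, 168, 191 and 177 CPM in WT control, 247, 346, 763 and 273 CPM in the libraries labelled *Mtmr2* KO, and 219.5, 228, 180.4 and 204 CPM with niacin. All 4 *Mtmr2* KO libraries were above both other groups, and library 4503 stood above the rest, as for *Pdk4*. The log2 fold changes of *Sesn1* were 1.17 for *Mtmr2* KO against WT control (adjusted p = 0.0875) and −0.97 for niacin-treated against *Mtmr2* KO (adjusted p = 0.0953, edgeR quasi-likelihood F test). Without library 4503 they were 0.67 and −0.47, with the groups still not overlapping.

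Across the 12 libraries the genes whose log2 levels followed each of the 9 most closely had Pearson's r between 0.93 and 0.98, which is a description over libraries that share groups, depth and scaling. *Sesn1* and *Klf15*, a fasting and glucocorticoid-induced factor, were the closest to *Pdk4* (both r = 0.97), and *Trub1* was the closest to *Txnip* (r = 0.96). Without library 4503 these became 0.88, 0.81 and 0.87. *Dhx40* was the closest to *Ccng2* (r = 0.98 over 12 libraries and 0.97 without 4503), *Mapt* to *Fbxo32* (0.95 and 0.93), *Kirrel* to *Irs2* (0.97 and 0.96) and *Auh* to *Bcl6* (0.96 and 0.93). For the factors they were *Nrde2* for *Foxo1* (0.97 and 0.94), *Pgap2* for *Foxo3* (0.98 and 0.97) and *Pdlim2* for *Foxo4* (0.97 and 0.96).

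Among the 9 genes themselves the 36 pairwise values of r had a median of 0.59 with library 4503 and 0.26 without it. *Ccng2* and *Fbxo32* stayed together (0.91 and 0.88), as did *Foxo1* and *Foxo3* (0.89 and 0.78) and *Foxo3* and *Bcl6* (0.89 and 0.80). *Pdk4* and *Txnip* had 0.79 with library 4503 and 0.03 without it.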

How the data were processed

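RNA-seq of sciatic nerve was analysed from 12 libraries, each from 1 mouse, grouped by the sample labels. The authors deposited raw counts of reads per Ensembl gene without normalization. The submitters' processing notes name CASAVA 1.9, STAR, DESeq2 and the builds GRCm38 and mm10, while the program that counted reads, its annotation and its strand setting were not given in the sources used here. Overlapping genes could therefore share reads. The authors' 3 DESeq2 tables hold their fold changes and p-values, of which none was used. They served to pair identifiers with symbols (42615 of 43432 genes). No column of per-sample values was left out (0) and no row lacked a gene identifier (0).

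Analysis used edgeR 4.0.16 in R 4.3.3, with filterByExpr over the 3 groups, TMM scaling and 1 quasi-likelihood fit over all 12 libraries without covariates, two-sided, with Benjamini-Hochberg adjustment over the 17257 genes tested and calls at an adjusted p under 0.05. Standard errors were obtained as the absolute log2 fold change over the root of F. CPM were computed with the TMM factors, log2 CPM with a prior count of 2, and CPM per kb with the exon lengths of GENCODE M21, which also gave the coordinates. Each mouse is 1 replicate. The procedure was tested on simulated data. Alternatives were DESeq2 1.42.0, limma 3.58.1 (voom with sample quality weights), DESeq2 size factors, no filter beyond 1 count, only the 2 groups compared, the level of *Xist* as a covariate, and each library left out. Library totals without TMM and leaving out the libraries with muscle transcripts, with or without library 4503, were chosen after seeing the data.

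The 9 genes and all gene lists were chosen with earlier results of these data known. Besides the 9, the text names *Mtmr2*, the genes of each list that were called or among its 3 most abundant (not all of which are reported), the genes most like each of the 9 over the libraries, and genes that DESeq2 or limma-voom called. *Trim63*, *Plin1* and *Lep* and the latter calls were chosen after their values were seen. The same holds for list members named because their role or direction differs from others of their list. Of the listed genes, *Depp1* and *Prmt1* matched no symbol.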

Additional observations from a re-analysis of the deposited data

Results flagged for a closer look

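A Dixon test in each group of 4 libraries, run over 33 groups of the 9 genes, *Mtmr2* and *Cdkn1b*, singled out 4 values. Each stood far from the other 3 of its group. Chance gives about 1 such value in 20 groups. *Pdk4* had 288 CPM in the library labelled *Mtmr2* KO replicate 4503, where the nearest library of the group had 77.7 CPM. *Bcl6* had 26.5 CPM in WT control replicate 4499, where the nearest had 23.8 CPM. *Bcl6* had 25.8 CPM in niacin-treated replicate 4506, where the nearest had 17.3 CPM, and *Cdkn1b* had 329 CPM in the same library, where the nearest had 271 CPM. Library 4506 is also one of the pair with muscle transcripts.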

How the results depend on the processing

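No paired analysis was possible because the replicate numbers of the labels differ in every library and no number is shared between groups. The direction of the 9 genes was stable for niacin-treated against *Mtmr2* KO, where the log2 fold changes of 8 genes stayed below 0 in all 21 alternatives and that of *Txnip* in 18. Counts of called genes were not stable, and the cause was not tested.

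For *Mtmr2* KO against WT control, edgeR called 46 genes, and this became 680 with DESeq2, 108 with limma-voom, 341 without the filter, 0 in the fit of 2 groups (2349 at an unadjusted p under 0.05), 12 with *Xist*, 91 without TMM, 6 without libraries 4506 and 4507 and 7 without 4503 as well. Leaving out 1 library gave 0 to 457, with 457 without 4501. Of the 9 genes, DESeq2 called 2 and the fit without the filter 1, and leaving out 1 library gave 0 to 2. Of the pathway genes, 9 were called by DESeq2, 6 by limma-voom and 6 without the filter, and leaving out 1 library gave 0 to 7.

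For niacin-treated against *Mtmr2* KO, the 246 genes became 1059 with DESeq2, 2007 with limma-voom, 573 without the filter, 0 in the fit of 2 groups (2249 at an unadjusted p under 0.05), 50 with *Xist*, and 0 without 4506 and 4507 (2192 at an unadjusted p under 0.05) or also without 4503. Leaving out 1 library gave 0 to 4180, with 4180 without 4502. Of the 9 genes DESeq2 called 4, and the fit of 2 groups and both fits without 4506 and 4507 called 0, with 0 to 7 when 1 library was left out. For the pathway genes these were 13 with DESeq2, 24 with limma-voom, 2 with DESeq2's size factors in edgeR, 9 without the filter, 2 without TMM, 0 in the fit of 2 groups and 0 in both fits without 4506 and 4507, and 0 to 40 when 1 library was left out.

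For niacin-treated *Mtmr2* KO against WT control, the 0 genes of edgeR (4254 at an unadjusted p under 0.05) became 1057 with DESeq2, 7311 with limma-voom, 311 without the filter and 5586 in the fit of 2 groups, which leaves out the widely spread *Mtmr2* KO libraries, and 0 to 3826 when 1 library was left out, with 3826 without 4502. Of the 9 genes 1, 6 and 5 were called by DESeq2, limma-voom and the fit of 2 groups, and 0 to 3 when 1 library was left out. Of the pathway genes these called 11, 57 and 46, the fit without the filter called 2, and leaving out 1 library gave 0 to 26. Scaling by library totals without TMM moved the median log2 fold change of all genes by 0.107 for niacin-treated against *Mtmr2* KO, from −0.04 to 0.07, and the calls from 120 higher and 126 lower to 193 higher and 79 lower, while all 9 genes stayed lower. For *Mtmr2* KO against WT control the 46 calls were 8 higher and 38 lower, and those of DESeq2 270 higher and 410 lower.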

Other observations

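Some genes outside the pathway lists that are commonly induced together with FoxO targets in fasting were called. Of 12 genes known to respond to glucocorticoids, 2 were lower in niacin-treated than in *Mtmr2* KO, the metallothioneins *Mt1* and *Mt2*, with log2 fold changes of −2.60 (edgeR adjusted p = 0.0383) and −2.73 (edgeR adjusted p = 0.0401). The list had a median log2 fold change of −0.93, and 11 of its 12 means were lower. Without library 4503 neither gene was called (−2.45 and −1.98, edgeR adjusted p = 0.0687 and 0.08), the median was −0.22 and 7 means were lower. In *Mtmr2* KO against WT control 0 of the 12 were called by edgeR, with 6 at an unadjusted p under 0.05 and 3 called by DESeq2, and the median was 1.18 (0.23 without library 4503). Over all 17257 genes tested 2976 had an unadjusted p under 0.05 there, and DESeq2 called 270 of 18330 genes higher and 410 lower.

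Of 12 genes known as targets of PPAR factors, 1 was lower with niacin than in *Mtmr2* KO, *Acot1*, an acyl-CoA thioesterase. Its mean was 30.2 CPM in WT control, 67.1 CPM in *Mtmr2* KO and 29.7 CPM with niacin, with a log2 fold change of −1.18 between the latter groups (adjusted p = 0.0457 in edgeR), which became −0.85 without library 4503 (edgeR adjusted p = 0.105). The median of this list was 0.06.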
